A study of Mus musculus with 19 samples.

Results

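The genes described here code for scaffold proteins of the postsynaptic density, the protein-rich layer beneath the receptors of an excitatory synapse. They are the 4 membrane-associated guanylate kinase genes Dlg1, Dlg2, Dlg3 and Dlg4, the 2 linker genes Dlgap1 and Dlgap3, and the 3 genes Shank1, Shank2 and Shank3. These 9 genes were chosen by name, with no threshold on their values, and are 9 of the 39017 genes in the deposited tables. Earlier results of these data were known when the genes were chosen. All 9 had enough counts to be tested.

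The scaffolds are stacked in layers. Near the membrane, proteins of the Dlg family hold the tails of glutamate receptors, potassium channels and adhesion proteins with their PDZ domains. Dlgap proteins bind the guanylate kinase domain of Dlg proteins on one side and the PDZ domain of Shank proteins on the other, and Shank proteins connect through Homer and cortactin to deeper receptors and to actin. In the striatum this machinery sits in the spines of the spiny projection neurons (SPNs), where cortical and thalamic axons end, and mice that lack Dlgap3 or Shank3 are known for excessive grooming together with altered corticostriatal synapses.

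Messenger RNA bound to ribosomes was read from 16 mouse striatum libraries by translating ribosome affinity purification, in which a green fluorescent tag on the ribosomal protein L10a pulls down the ribosomes of 1 kind of cell. The D1 groups came from Drd1::EGFP-L10a mice and the D2 groups from Drd2::EGFP-L10a mice, on the background the labels spell C56BL/6J, so that the promoter of a dopamine receptor gene decides which cells carry the tag. Each kind was taken at an age of 42 days (called young here) and of 2 years (called old), with 4 libraries in each of the 4 groups. All mice were female, no group received a treatment, and the labels do not say whether animals were pooled. A further 3 samples of NIH-3T3 fibroblasts were not analysed here.

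Marker levels matched the labelled kinds of neuron. The summed level of 7 D1 genes, in TPM (an abundance per length of transcript, scaled to the same total in every library), was 2634 to 3461 in young D1 and 4828 to 7693 in old D1, against 144 to 169.8 in young D2 and 439 to 689 in old D2. For the 5 D2 genes found in the tables it was 7615 to 8849 in young D2 and 5455 to 11479 in old D2, against 108 to 223 in young D1 and 112 to 551 in old D1. The libraries held 27484038 to 70903004 assigned fragments. Old D1 libraries stood apart: a count was seen for 10369 to 13705 genes against 12783 to 15000 in the other 12 libraries, fragments had a mean length of 151 to 164 bases against 170.3 to 195 elsewhere, and isoform models that lack their 5′ end took 1.92 to 2.18% of counts against 1.198 to 1.48%. Every old D1 library also carries an index ending that no other group has, and the same holds for young D2. Index and group thus cannot be told apart in the comparisons of age or in those of D1 with D2. The part of these differences in the results was not tested.

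In TPM, Dlg4 stood highest of the 9 genes in every library and Dlg2 came after it in every library. Over all 16 libraries the means were 979 ± 394 TPM for Dlg4 (SD, n = 16) and 250.3 ± 59.3 for Dlg2. Below them came Dlg1 at 80.2 ± 27.1, Shank3 at 62.7 ± 33.7, Dlgap3 at 62.4 ± 31.9, Shank2 at 52.6 ± 28.9, Dlg3 at 49.1 ± 14.8, Dlgap1 at 34.6 ± 7.57 and Shank1 at 31.2 ± 22.3. Neighbours among these 7 genes did not separate: Dlg1 was above Shank3 in 9 of 16 libraries, Shank3 above Dlgap3 in 7, Dlgap3 above Shank2 in 12, Shank2 above Dlg3 in 9, Dlg3 above Dlgap1 in 11 and Dlgap1 above Shank1 in 10. The lead of Dlg4 was smaller over a fixed length: with counts scaled to library size (CPM) and divided by the length of the longest coding isoform in kilobases, Dlg4 came to 163 ± 64.9 and Dlg2 to 87.0 ± 15.8, and Dlg4 was above Dlg2 in 12 of 16 libraries. The other 4 were the old D1 libraries, where Dlg2 came to 75.3 and Dlg4 to 60.8 on this scale.

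**Figure D1:**
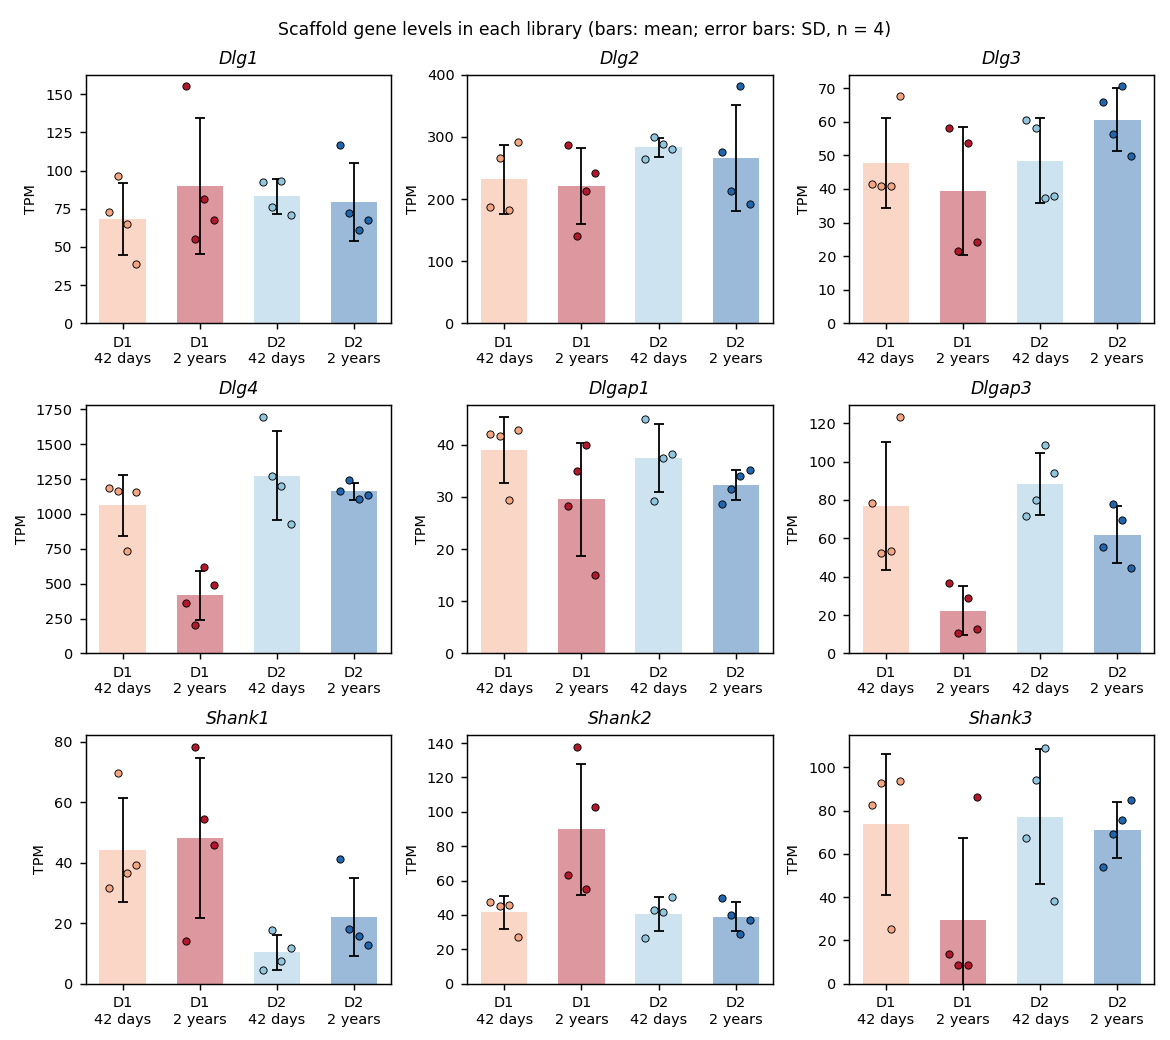
Levels of the 9 scaffold genes in TPM (y axis, linear, from 0) in each library, by neuron type and age (x axis); points are the 4 libraries of a group, bars their mean and error bars the SD, cut at 0 for Shank3 in old D1. Dlg4 ran from 203 to 617 TPM in old D1 and from 738 to 1698 in the other 3 groups, and Shank1 reached 17.8 TPM at most in young D2 against 31.6 or more in young D1.

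Age was compared first in D1 neurons. A gene was called where edgeR's quasi-likelihood test gave a Benjamini-Hochberg adjusted p under 0.05 over the 13926 genes tested. In old D1, 3 of the 9 scaffold genes were lower and 1 was higher, beside 5.44% of all tested genes called lower and 5.39% called higher. Dlg4, Dlgap3 and Shank3 fell, Shank2 rose, and the median change of the 9 was -0.52 on the log2 scale against -0.06 for all genes. Levels here are scaled to the total of each pulldown library. Neither the number of tagged cells nor the amount of RNA per cell can be read from them.

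Dlg4 codes for PSD-95, a leading scaffold of the excitatory synapse. Its 4 young D1 libraries stood at 1183, 1166, 738 and 1160.4 TPM, and its 4 old D1 libraries at 361, 203, 617 and 487 TPM. Every old D1 library lay below every young one, although young D1 replicate 3 came near the highest old value. The fitted change was -1.64 (SE 0.19, 95% interval -2.05 to -1.23; edgeR adjusted p = 8.84e-05), a fold of 3.12. It was called in all 17 alternatives tried, between -1.81 and -0.88.

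Among the linkers, Dlgap3 (also called SAPAP3) is strongly expressed in the striatum. It was measured at 78.2, 52.4, 53.6 and 123 TPM in young D1 and at 36.9, 10.8, 28.9 and 12.5 TPM in old D1, with no overlap. The change was -1.87 (SE 0.38; edgeR adjusted p = 0.00411), or 3.66-fold, and it was not called when only the D1 groups were fitted (edgeR adjusted p = 0.0667) or by limma's voom with library weights (adjusted p = 0.0527), nor with the dependence on GC content and length removed (-0.50; edgeR adjusted p = 0.364). Dlgap1, its close relative, was measured at 42.0, 41.7, 29.5 and 42.85 TPM in young D1 and at 28.3, 34.9, 40.02 and 15.0 TPM in old D1. These groups overlapped, and the change of -0.58 (95% interval -1.12 to -0.04; edgeR adjusted p = 0.157) was not called.

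Both linkers end in the same kind of signal, the PDZ-binding tail that Shank proteins recognise. The last 36 coding bases before the stop codon are shown here to place the 2 genes side by side, with the final 4 codons in capitals (GENCODE M21, GRCm38, plus strand; chr17:70818196-70818231 for Dlgap1 and chr4:127236330-127236365 for Dlgap3).
Dlgap1: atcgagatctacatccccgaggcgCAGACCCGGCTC
Dlgap3: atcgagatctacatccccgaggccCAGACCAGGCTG

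The Shank genes, which code for the deepest scaffolds, moved in different directions. Shank3 was measured at 82.75, 92.9, 25.2 and 93.5 TPM in young D1 and at 13.7, 8.44, 8.78 and 86.25 TPM in old D1. In each group 1 library stood far from the other 3, low in young D1 replicate 3 and high in old D1 replicate 4, so the groups overlapped. The change was -1.90 (SE 0.46; edgeR adjusted p = 0.0132), and without old D1 replicate 4 it was -2.75. It was not called when only the D1 groups were fitted (edgeR adjusted p = 0.104) or by limma on log2(TPM + 1) (adjusted p = 0.053), nor with the dependence on GC content and length removed (-0.997; edgeR adjusted p = 0.164).

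Shank2 went the other way. Young D1 libraries held 47.6, 45.4, 45.6 and 27.3 TPM, and old D1 libraries 63.2, 138, 54.9 and 102.9 TPM. All 4 old values lay above all 4 young ones, 2 of them by a wide margin. The change was 1.07 (SE 0.29; edgeR adjusted p = 0.0222), and the call was lost on leaving out replicate 1 or 4 of young D1, or replicate 2 or 4 of old D1 (edgeR adjusted p 0.0504 to 0.0808). It was also lost when only the D1 groups were fitted (edgeR adjusted p = 0.115), by limma on log2(TPM + 1) (adjusted p = 0.058) or log2(TPM + 0.1) (adjusted p = 0.0554) and by voom (0.67; adjusted p = 0.18).

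Shank1 had no call with age in D1 neurons, at 31.6, 69.5, 36.5 and 39.15 TPM in young D1 and 14.25, 78.3, 54.4 and 45.9 TPM in old D1. The old values spanned the young ones on both sides, and the change was -0.31 (95% interval -1.22 to 0.60; edgeR adjusted p = 0.715). Within single libraries, Shank2 exceeded Shank3 in 4 of 4 old D1 libraries, with a median ratio of 5.43, and in 1 of 4 young D1 libraries, with a median ratio of 0.53.

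The other 3 Dlg genes were not called. Dlg1, which codes for SAP97 and takes part in carrying receptors to the surface, was measured at 72.65, 96.2, 65.2 and 38.9 TPM in young D1 and 155, 55.35, 81.5 and 67.8 TPM in old D1, a change of 0.77 (95% interval 0.16 to 1.39; edgeR adjusted p = 0.0989) with overlap, which was called without young D1 replicate 2 (1.07; edgeR adjusted p = 0.0377). Dlg2, which codes for PSD-93, was measured at 187, 266, 183 and 291 TPM in young D1 and 287, 141, 213 and 242 TPM in old D1. Its groups overlapped, with a change of -0.07 (95% interval -0.47 to 0.34). Dlg3, which codes for SAP102, the scaffold of young synapses, was measured at 41.4, 40.8, 41.02 and 67.7 TPM in young D1 and 58.0, 21.6, 53.75 and 24.3 TPM in old D1, where 2 libraries were low and 2 high, with a change of -0.52 (95% interval -1.15 to 0.11).

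In D2 neurons age gave another picture. None of the 9 genes was called by edgeR, beside 0.079% of all genes. None was called by DESeq2 or in the 18 alternatives tried. At an unadjusted p under 0.05 there were 2, for which the share of all genes is not given. Dlg4 stood at 1698, 1271, 1198 and 928 TPM in young D2 and at 1168, 1243, 1105 and 1136 TPM in old D2, with the old values inside the young range and a change of -0.28 (95% interval -0.68 to 0.11). The 2 genes with an unadjusted p under 0.05 were Dlgap1, at -0.62 (95% interval -1.16 to -0.08), and Shank1, at 1.02 (95% interval 0.10 to 1.94).

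Dlgap3 was measured at 71.85, 79.75, 108 and 94.1 TPM in young D2 and 55.5, 78.0, 69.3 and 44.4 TPM in old D2, a change of -0.65 (95% interval -1.42 to 0.12). Shank3 was measured at 67.3, 94.15, 109 and 38.3 TPM in young D2 and 54.0, 69.2, 75.7 and 84.7 TPM in old D2, a change of -0.05 (95% interval -0.98 to 0.89). Both genes overlapped between ages. Shank2 held 26.5, 43.0, 41.55 and 50.4 TPM in young D2 and 49.97, 40.2, 29.1 and 37.0 TPM in old D2, a change of -0.13 (95% interval -0.72 to 0.46). Dlg1, Dlg2 and Dlg3 overlapped as well, with changes of -0.21, -0.23 and 0.16.

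Whether the age change differed between the 2 kinds of neuron was tested directly. Only Dlg4 was called, with a difference (D1 minus D2) of -1.36 (SE 0.27, 95% interval -1.92 to -0.79; edgeR adjusted p = 0.0178), beside 0.84% of all genes called more negative and 0.926% called more positive in D1. Shank3 (-1.85, SE 0.64; edgeR adjusted p = 0.135), Shank2 (1.199, SE 0.40; edgeR adjusted p = 0.123) and Dlgap3 (-1.22, SE 0.52; edgeR adjusted p = 0.232) were not called. Without old D1 replicate 4 the difference for Shank3 was called (-2.70; edgeR adjusted p = 0.00846), and without old D1 replicate 3 that for Shank2 was (1.38; edgeR adjusted p = 0.0427). The call of Dlg4 ended once the dependence on GC content and length had been removed (-0.50; adjusted p = 0.346) and with limma on log2(TPM + 1) (-1.33; adjusted p = 0.0903) or log2(TPM + 0.1) (-1.34; adjusted p = 0.0852).

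**Figure D2:**
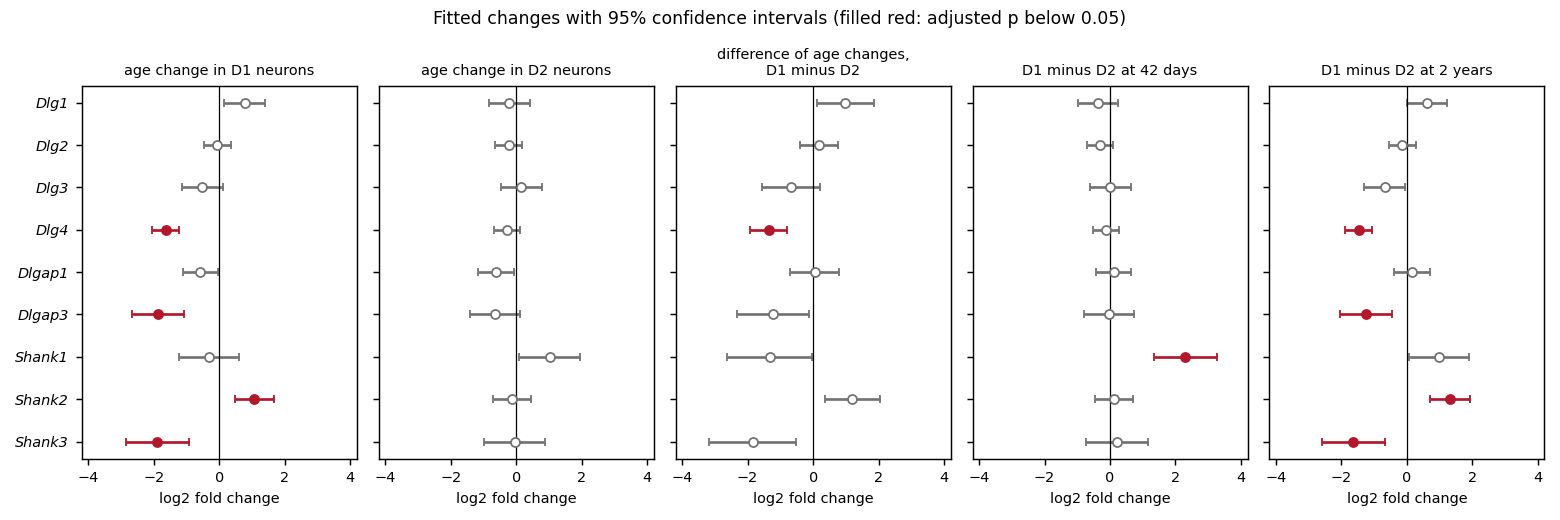
Fitted log2 fold changes of the 9 genes (x axis) with 95% confidence intervals in the 5 comparisons; filled red points passed an adjusted p of 0.05 and open grey points did not. Age in D1 and D1 against D2 at 2 years each show Dlg4, Dlgap3 and Shank3 on the left and Shank2 on the right; these 2 comparisons share the old D1 libraries.

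The 2 kinds of neuron were then compared in young mice. Shank1 was the only scaffold gene called at 42 days, where 0.201% of all genes were called higher in D1 and 0.208% lower. Shank1 was measured at 31.6, 69.5, 36.5 and 39.15 TPM in young D1 and at 4.63, 17.8, 7.35 and 11.9 TPM in young D2. Every D1 library lay above every D2 library, and the difference was 2.30 (SE 0.46, 95% interval 1.34 to 3.26; edgeR adjusted p = 0.0219), a fold of 4.92.

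This call rests on few libraries and on the scale used. It ended without young D1 replicate 2 or young D2 replicate 1, 3 or 4 (differences 2.00 to 2.31, adjusted p 0.083 to 0.112), and with limma on log2(TPM + 1) (2.06; adjusted p = 0.159) or log2(TPM + 0.1) (2.18; adjusted p = 0.153). Of the other 8 genes none was called by edgeR (0 at an unadjusted p under 0.05) or by DESeq2. Their differences ran from -0.37 for Dlg1 to 0.21 for Shank3, and all 8 overlapped between the kinds.

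At 2 years, D1 and D2 neurons differed in 4 of the 9 genes. Dlg4, Dlgap3 and Shank3 were lower in D1 and Shank2 was higher, beside 4.58% of all genes called lower and 5.02% called higher. Dlg4 was 2.78-fold lower (-1.47, SE 0.19; edgeR adjusted p = 1.16e-04) with no overlap, and was called in all 17 alternatives. Shank2 was 2.502-fold higher (1.32, SE 0.29; edgeR adjusted p = 0.00723) with no overlap, and was called in 16 of 17, the exception being the fit of only the old groups (adjusted p = 0.0619).

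The calls of Dlgap3 (-1.25, SE 0.37; edgeR adjusted p = 0.0405) and Shank3 (-1.64, SE 0.46; edgeR adjusted p = 0.0301) held in 9 of 17 alternatives each. Dlgap3 did not overlap between the kinds, while Shank3 overlapped through old D1 replicate 4. Without old D1 replicate 2 or 4, or old D2 replicate 1, 2 or 3, Dlgap3 was not called (adjusted p 0.0665 to 0.0984). Without old D1 replicate 1, 2 or 3, or old D2 replicate 2, 3 or 4, Shank3 was not called (adjusted p 0.0579 to 0.0777). Shank1, at 14.25, 78.3, 54.4 and 45.9 TPM in old D1 and 41.3, 18.2, 15.9 and 12.8 TPM in old D2, was not called at 2 years (0.97, 95% interval 0.05 to 1.89; edgeR adjusted p = 0.172).

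Markers of other cells moved in some comparisons. With age in D1, 1 of 5 GABAergic interneuron markers (Nos1) rose, beside 5.39% of all genes called higher. None of 6 astrocyte, 6 oligodendrocyte, 4 microglial, 2 cholinergic, 4 cortical glutamatergic and 1 endothelial marker tested was called. Of 7 D1 markers 1 rose, and of 6 genes shared by all SPNs 1 fell, beside 5.44% of all genes called lower. The summed level of the 6 SPN genes was 4105 to 4350 TPM in old D1 against 5126 to 6499 in young D1. The summed level of the GABAergic markers ran from 30.5 to 546 TPM in old D1 against 62.8 to 142 in young D1, and that of the cortical glutamatergic markers from 0.09 to 139 against 1.47 to 17.8. Among the cortical genes in old D1, Slc17a7, the vesicular glutamate transporter, reached 1.17 TPM at most, while Tbr1 reached 139 and Neurod6 30.65. The microglial gene C1qa was at 0 in every library, while Aif1 reached 11.35 TPM and P2ry12 6.68 in old D1. Summed microglial markers ran from 0 to 18.03 TPM in old D1 against 0.46 to 9.33 in young D1. The part of these cells in the scaffold changes was not tested.

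In D2 neurons, markers of D1 neurons moved with age: 4 of 7 rose and none fell, beside 0.079% of all genes called in either direction. Drd1 went from 8.31 ± 2.54 TPM in young D2 to 67.6 ± 16.7 in old D2 (edgeR adjusted p = 2.86e-05) and Tac1 from 122 ± 9.97 to 414 ± 119 (edgeR adjusted p = 0.00508), and Chrm4 and Sfxn1 rose as well. Both stayed well below their levels in old D1, where Drd1 was at 418 ± 130 TPM and Tac1 at 4054 ± 1274. The summed level of the 6 astrocyte markers was 10.5 to 14.7 TPM in young D2 and 33.4 to 47.95 in old D2, and none was called. At 2 years the astrocyte gene Slc1a2 (0.99) and the cortical gene Tbr1 (8.73, with overlap) were higher in D1 than in D2, beside 5.02% of all genes. No other astrocyte marker was called in that comparison, where the median of the 6 was -0.84 against -0.07 for all genes. The oligodendrocyte gene Cnp (-2.24) and the SPN gene Ppp1r1b (-1.11) were lower, beside 4.58%. At 42 days Slc1a2 was higher in D1 (1.30), beside 0.201% of all genes, and 1 of 6 SPN genes was lower, beside 0.208%. The part of these cells in the scaffold values of D2 neurons was not tested either.

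**Figure D3:**
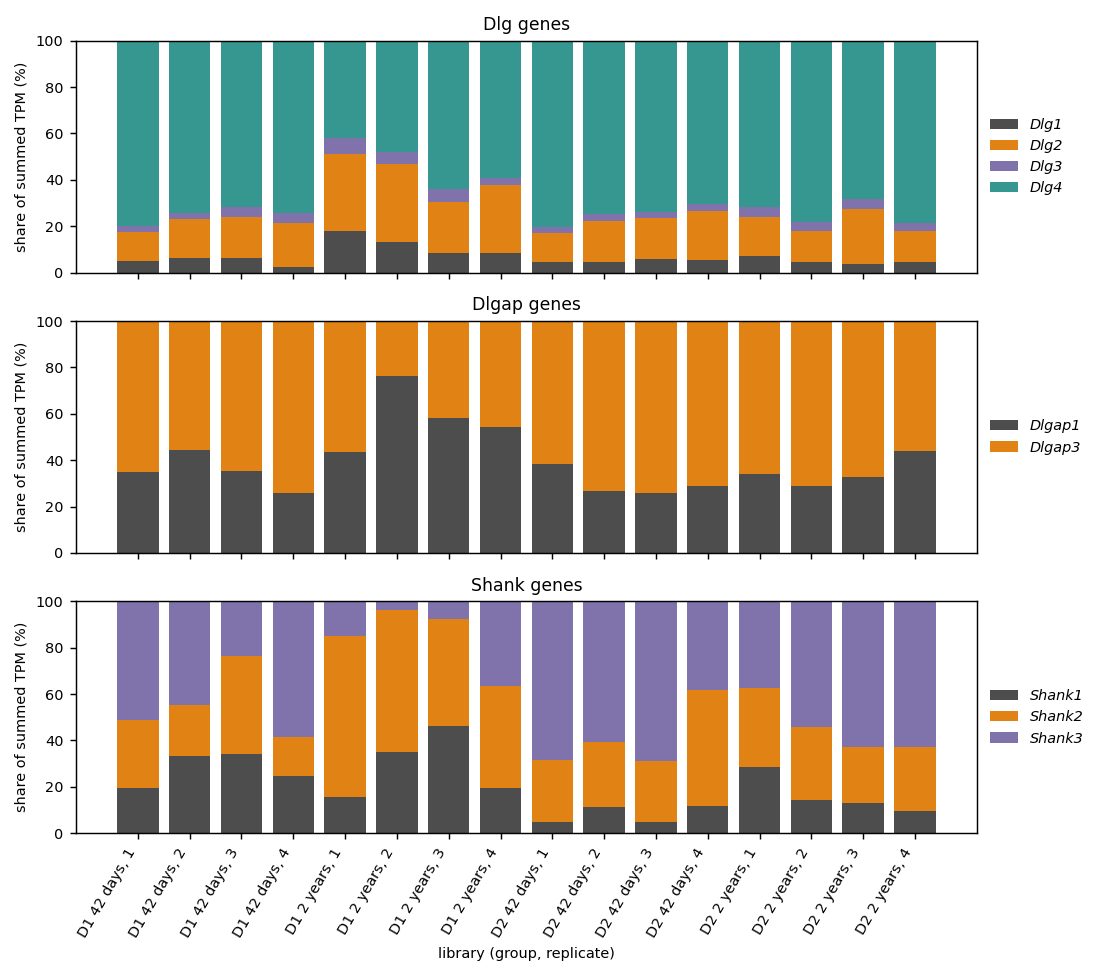
Share of each gene in the summed TPM of its family (y axis, percent) in each library (x axis, group and replicate), for the Dlg, Dlgap and Shank genes. Dlg4 held 41.9 to 63.9% of the Dlg sum in old D1 and 68.3 to 80.3% in the other 12 libraries.

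The make-up of each family also shifted in old D1; these shares are a description and were not tested. Dlg4 made up 41.9, 48.2, 63.9 and 59.4% of the Dlg sum in old D1, below its share in each of the other 12 libraries, and the shares of Dlg1 (8.26 to 18.01%) and of Dlg2 (22.1 to 33.5%) were correspondingly larger than in young D1 (2.497 to 6.35% and 12.6 to 18.7%). Dlgap3 fell from 64.9 ± 7.58% of the Dlgap pair in young D1 (SD, n = 4) to 41.9 ± 13.7% in old D1, where Dlgap1 exceeded it in 3 of 4 libraries. Shank2 made up 69.3, 61.4, 46.5 and 43.8% of the Shank sum in old D1, and Shank3 15.1, 3.76, 7.44 and 36.7%.

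In young mice the Shank make-up was what differed between the kinds. Shank1 held 19.5, 33.5, 34.1 and 24.5% of the sum in young D1 and 4.70, 11.504, 4.65 and 11.8% in young D2. The Dlg shares of young D1 and young D2 lay close together, with Dlg4 at 75.1 ± 3.32% and 74.8 ± 4.05% (SD, n = 4). In shares of counts instead of TPM, Dlg4 held 51.8 ± 1.94% in young D1 and 25.3 ± 3.42% in old D1.

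The TPM of Dlg4 was divided differently among isoform models in old D1. The isoform percentage is the share of a gene's TPM that the authors' program gave to 1 transcript model, and 4 models of Dlg4 had a mean of at least 5% in some group. Dlg4-208, a model of the 5′ part of the gene without a full coding sequence (chr11:70029817-70039047), held 66.2, 57.0, 29.6 and 73.55% in young D1 and 0, 22.5, 23.8 and 0% in old D1. Dlg4-207, a short model near the 3′ end that keeps an intron (chr11:70044197-70044718), held 6.50, 13.0, 28.8 and 3.15% in young D1 and 63.35, 35.6, 49.7 and 76.98% in old D1.

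All 4 old D1 libraries were above all 4 young ones for Dlg4-207 and below all 4 for Dlg4-208. The test of isoform use gave Dlg4-208 an adjusted p of 0.112 and Dlg4-207 one of 0.496 with age in D1 (edgeR diffSpliceDGE). Neither shift was called. Dlg4-201, a model annotated with a complete coding sequence, held 19.7, 24.8, 37.0 and 17.6% in young D1 and 34.8, 39.9, 22.7 and 22.96% in old D1, with overlap. These are shares of TPM, in which a count on a short model weighs more than on a long one. By counts, Dlg4-207 had 125 to 867 in young D1, where Dlg4 as a whole had 29227 to 32254. It had 249 to 1032 in old D1, with overlap, where Dlg4 as a whole had 6791 to 11873. Complete coding isoforms took 73.7 to 92.1% of the Dlg4 counts there, against 51.03 to 81.7% in young D1. Counted over complete coding isoforms only, Dlg4 still fell with age in D1, by 1.196 on the log2 scale (edgeR adjusted p = 2.83e-04), and the difference between D1 and D2 was -0.84 (edgeR adjusted p = 0.0784).

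Of the 301 bases of Dlg4-207, 196 lie in coding exons of Dlg4-201, 79 at its start are intronic, and 26 lie beyond the coding sequence at its end. Its first 120 bases are given to show the intronic stretch, in lower case, running into the coding exon, in capitals (GENCODE M21, GRCm38, chr11:70044197-70044316, plus strand).
Dlg4-207: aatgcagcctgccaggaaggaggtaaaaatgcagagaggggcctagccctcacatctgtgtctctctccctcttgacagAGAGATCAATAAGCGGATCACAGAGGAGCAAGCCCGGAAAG

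**Figure D4:**
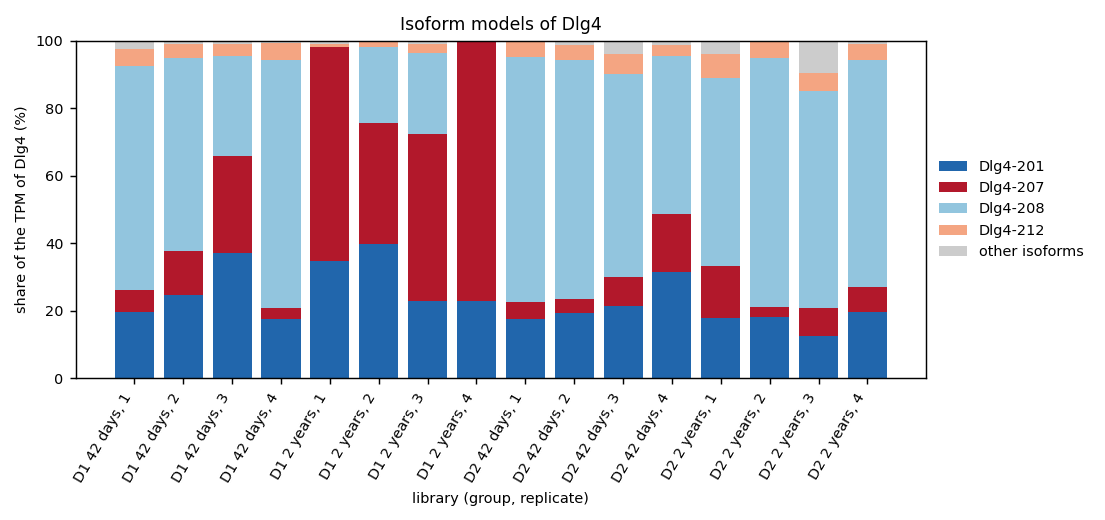
Share of the TPM of Dlg4 given to each isoform model (y axis, percent) in each library (x axis, group and replicate). Dlg4-207 held 35.6 to 77.0% in old D1 and at most 28.8% in the other 12 libraries, and Dlg4-208 held 23.8% at most in old D1 and at least 29.6% elsewhere.

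PSD-95 is anchored to the membrane by palmitate on a pair of cysteines at its start. The coding start of Dlg4-203, the model that holds them, is shown for that reason, with the cysteine codons, codons 3 and 5, in capitals (GENCODE M21, GRCm38, plus strand, spliced, between chr11:70018920 and 70026928).
Dlg4-203: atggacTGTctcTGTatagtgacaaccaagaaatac

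Dlg4-203 itself held 0 to 9.18% of Dlg4 over the 16 libraries and no count in 2 of the 4 old D1 libraries. Dlg4-201, though annotated as complete, has no cysteine codon in its first 36 coding bases. Of 9 genes for enzymes that add or remove this palmitate, 2 fell with age in D1 and none rose, beside 5.44% of all genes called lower and 5.39% higher, with a median of -0.73 against -0.06 for all genes. These were Zdhhc8, from 21.2 ± 3.802 to 7.90 ± 3.43 TPM (-1.55; edgeR adjusted p = 0.0239), and Zdhhc3, from 36.2 ± 20.2 to 12.02 ± 5.69 TPM (-1.63; edgeR adjusted p = 0.0378), both palmitoyltransferases. At 2 years Abhd17c, which removes palmitate, was higher in D1 than in D2 (0.90; edgeR adjusted p = 0.0457), and no gene of the group was called with age in D2, in the direct test of the difference or at 42 days.

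Over all 9 genes, 56 of 85 listed isoforms could be tested. With age in D1, 3 were called, beside 2.83% of all isoforms tested. They were Dlg2-209, Dlgap3-202 and Dlgap3-203, all without a count in every old D1 library. Dlg2-209, a model that keeps an intron (chr7:91090726-92288935), held 0, 44.2, 18.5 and 40.5% of Dlg2 in young D1 (edgeR diffSpliceDGE adjusted p = 7.55e-06), so that young D1 replicate 1 was at 0 as well.

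Dlgap3-202 held 6.10, 17.2, 6.63 and 0.25% in young D1 (edgeR diffSpliceDGE adjusted p = 0.0212) and Dlgap3-203 held 10.2, 38.2, 0.38 and 1.66% (adjusted p = 0.00379). The whole of Dlgap3 was thereby on Dlgap3-201 in all 4 old D1 libraries, which held 843 to 2278 counts of the gene against 2132 to 11592 in the other 12. At 2 years 7 isoforms were called lower in D1, beside 3.28% of all isoforms: the same 3, with Dlg1-201, Dlg3-204, Dlgap1-210 and Shank2-203, and none had a count in old D1. Adjusted p (edgeR diffSpliceDGE) was 0.0286 for Dlg3-204 and for Dlgap1-210, 0.0428 for Dlg1-201 and 0.0495 for Shank2-203. Each of these last-named isoforms lost its call on leaving out any single old D1 library (edgeR diffSpliceDGE adjusted p 0.0558 to 0.120). In old D2 the shares were 3.32, 19.2, 43.6 and 0% for Dlg2-209, 1.96, 18.2, 7.34 and 7.56% for Dlgap3-202, and 0.81, 4.17, 4.42 and 14.1% for Dlgap3-203. Dlg1-201 held 5.79, 0, 14.8 and 0%, Dlg3-204 held 21.7, 0, 48.5 and 0%, and Shank2-203 held 0, 0, 0.1 and 4.72%. Dlgap1-210 held 24.25, 16.2, 6.60 and 23.1%. Dlg1-201, Dlg3-204, Shank2-203 and Dlg2-209 were thus at 0 in some old D2 libraries too, while Dlgap1-210, Dlgap3-202 and Dlgap3-203 had a count in all 4. With age in D2 edgeR called none, beside 0.0185% of all isoforms, and between the kinds at 42 days none, beside 0.0324%. At an unadjusted p under 0.05 there were 2 in each, and limma's diffSplice called 1 and 0. For these counts the share of all isoforms is not given.

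Other isoform shares varied between libraries of 1 group. Dlg3-208, a transcript without a coding sequence that starts inside the gene and runs to its end, held 75.4, 47.0, 84.1 and 96.8% of Dlg3 in old D1 and 0, 5.99, 59.98 and 0% in young D1. Counted over complete coding isoforms only, Dlg3 fell with age in D1 (-2.09; edgeR adjusted p = 0.025). In old D1 replicate 4, which stood out for Shank3, 55.2% of that gene's TPM was on Shank3-202, a model without a coding sequence. Another 42.15% was on Shank3-205, which keeps an intron. Complete coding isoforms took 6.68% of the Shank3 counts in that library. On complete coding isoforms alone, Shank3 was called with age in D1 (-2.31; edgeR adjusted p = 6.47e-04) and in the difference between the kinds (-2.44; edgeR adjusted p = 0.0181).

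The genes that fell in old D1 are rich in G and C. Base composition of the main isoform was 65.6% GC for Dlgap3, 61.7% for Shank3 and 57.7% for Dlg4, against 43.8% for Dlg1 and 44.5% for Dlg2 and a median of 49.9% over tested genes. Shank1 at 61.4% and Shank2 at 55.1% lay above that median as well. With age in D1, Shank1 was not called and Shank2 rose. The most GC-rich run of 60 bases within 1 coding exon follows for the 3 genes that fell, for Shank2, which rose, and for Dlg2, which has the lowest such run, with G and C in capitals (GENCODE M21, GRCm38, plus strand; chr15:89524046-89524105 for Shank3, chr4:127214801-127214860 for Dlgap3, chr11:70043691-70043750 for Dlg4, chr7:144410974-144411033 for Shank2 and chr7:91900799-91900858 for Dlg2).
Shank3: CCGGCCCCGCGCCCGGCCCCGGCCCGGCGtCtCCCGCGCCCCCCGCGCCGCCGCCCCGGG
Dlgap3: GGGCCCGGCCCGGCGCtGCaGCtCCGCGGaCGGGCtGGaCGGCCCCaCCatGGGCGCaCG
Dlg4: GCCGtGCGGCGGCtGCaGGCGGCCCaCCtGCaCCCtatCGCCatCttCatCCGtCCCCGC
Shank2: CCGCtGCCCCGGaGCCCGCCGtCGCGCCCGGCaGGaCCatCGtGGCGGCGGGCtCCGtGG
Dlg2: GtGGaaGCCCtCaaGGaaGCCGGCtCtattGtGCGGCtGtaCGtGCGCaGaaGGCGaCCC

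Over the 9 genes the G and C share of such runs was 96.7% in Shank3, 83.3% in Dlgap3 and in Shank2, 81.7% in Shank1, 80% in Dlgap1, 76.7% in Dlg3, 73.3% in Dlg4, 68.3% in Dlg1 and 63.3% in Dlg2. Besides Shank3 and Dlgap3, the genes above Dlg4 in this order were Shank2, Shank1, Dlgap1 and Dlg3. With age in D1, Shank2 was called higher, while Shank1 (-0.31), Dlgap1 (-0.58) and Dlg3 (-0.52) were not called. Across all genes, the trend of old D1 against young D1 over GC content and length was -1.33 on the log2 scale at the composition of Dlgap3. It was -0.77 at that of Shank3 and of Dlg4, -0.73 at that of Shank1, -0.04 at that of Shank2 and 0.75 at that of Dlg1. With this trend removed from the fit, Dlg4 stayed called with age in D1 (-0.88; edgeR adjusted p = 0.00509) and Shank2 did too (1.09; edgeR adjusted p = 0.0389). Dlgap3 (-0.50; edgeR adjusted p = 0.364) and Shank3 (-0.997; edgeR adjusted p = 0.164) were no longer called, while Dlg2 became called (-0.82; edgeR adjusted p = 0.0286).

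At 2 years the removal left Dlg4 lower in D1 (-0.69; edgeR adjusted p = 0.0198) and Shank2 higher (1.55; edgeR adjusted p = 0.00505). It also raised Shank1 to a call (1.83; edgeR adjusted p = 0.0251). Dlgap3 came to 0.05, with its sign turned, and Shank3 to -0.73 (edgeR adjusted p = 0.337). The call of Shank1 at 42 days held (2.27; edgeR adjusted p = 0.0387). Whether base composition is the source of the changes that ended was not tested.

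**Figure D5:**
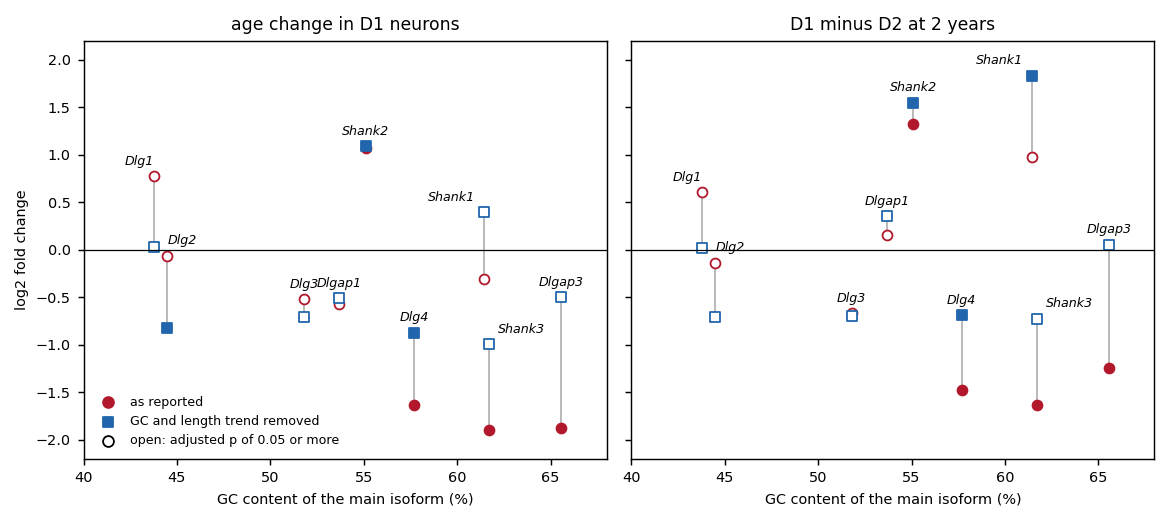
Fitted log2 fold change (y axis) of each scaffold gene against the GC content of its main isoform (x axis, percent), with age in D1 and for D1 against D2 at 2 years; circles are the values reported above, squares the fit corrected for GC content and length, and filled symbols passed an adjusted p of 0.05. Dlg4 and Shank2 stay filled in both fits and both comparisons, and Dlgap3 and Shank3 become open.

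Proteins that the scaffolds bind were examined as 4 further groups. For these genes, as for the palmitate enzymes above, only the edgeR fit of all 16 libraries is given. Their calls were not examined with the GC and length trend removed or with a library left out. Of 19 tested scaffold partners, 2 fell and 1 rose with age in D1, beside 5.44% of all genes called lower and 5.39% higher, with a median of -0.23 against -0.06 for all genes. Agap2 fell from 173 ± 18.6 to 82.3 ± 45.4 TPM (-1.22; edgeR adjusted p = 0.00931), and Cnksr2, which links Ras signalling to PSD-95, rose from 151 ± 22.8 to 446 ± 75.0 (1.55; edgeR adjusted p = 8.84e-05). Homer1, which ties Shank to metabotropic glutamate receptors, was the 1 partner called with age in D2, beside 0.079% of all genes, where it went from 288.9 ± 26.8 to 153 ± 46.9 TPM and fell by 1.28 (edgeR adjusted p = 0.0016).

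At 2 years 3 partners were higher and 2 lower in D1, beside 5.02% and 4.58% of all genes, among them Cnksr2 (1.10; edgeR adjusted p = 7.14e-04), Agap2 (-1.41; edgeR adjusted p = 0.00404) and the dynein light chain gene Dynll1 (0.73; edgeR adjusted p = 0.0422). None was called at 42 days. In the direct test of the difference 2 partners were called, both more positive in D1, beside 0.926% of all genes: Cnksr2 (1.23; edgeR adjusted p = 0.0182) and Homer1 (1.05; edgeR adjusted p = 0.0322).

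Receptors and adhesion proteins held by the scaffolds split by member. Of 15 tested, 5 fell and 2 rose with age in D1, beside 5.44% of all genes called lower and 5.39% higher, with a median of 0.02 against -0.06 for all genes. Grin1, the shared subunit of NMDA receptors, fell from 176 ± 91.9 to 65.8 ± 25.5 TPM (-1.82; edgeR adjusted p = 0.00366) and Cacng3, an auxiliary subunit of AMPA receptors, from 258 ± 142 to 49.9 ± 17.98 (-2.10; edgeR adjusted p = 3.39e-04). Gria2, an AMPA receptor subunit, rose from 189 ± 27.2 to 370.1 ± 94.8 (0.92; edgeR adjusted p = 0.00898) and the adhesion gene Lrrtm2 from 59.2 ± 9.95 to 167 ± 98.0 (1.49; edgeR adjusted p = 0.00688).

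At 2 years 4 of this group were lower in D1 than in D2 and none higher, beside 4.58% and 5.02% of all genes. They were Cacng3 (-1.27; edgeR adjusted p = 0.0114), the AMPA receptor subunit Gria1 (-1.04; edgeR adjusted p = 0.0121), Grin1 (-1.37; edgeR adjusted p = 0.0215) and the neuroligin Nlgn2 (-1.19; edgeR adjusted p = 0.0373). None was called in the other 3 comparisons.

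Of 12 other guanylate kinase family and Lin7 genes, Mpp6 (0.96; edgeR adjusted p = 0.024) and Lin7a (1.05; edgeR adjusted p = 0.0285) rose with age in D1, beside 5.39% of all genes, and none was called elsewhere. None of the 4 scaffold genes of inhibitory synapses, among them Gphn for gephyrin, was called in any of the 5 comparisons.

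The genes whose log2 CPM, centred on their own mean, lay closest to each scaffold gene over the 16 libraries differed from gene to gene. Distances are root mean square differences. Closest to Dlg4 were Cox4i1 (0.23), Dcaf7 (0.24) and Bex2 (0.24), where Dlg4 itself varied by 0.76. Closest to Dlgap3 were Ankrd13a (0.26), Ubqln4 (0.32) and Cox6a1 (0.34), against its own 0.94. Shank3 had Mark2 (0.46), Rps10 (0.48) and Gm12918 (0.48) against 1.09, and Shank2 had Ncaph2 (0.27), Cplx2 (0.28) and Slc25a46 (0.28) against 0.61.

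Shank1 had Serpine2 (0.55), Adra2c (0.66) and Gpr26 (0.67) against its own 1.10. Dlg1 had Ccdc115 (0.23), Ppp1r12a (0.27) and Kbtbd2 (0.28) against 0.48, and Dlg2 had Frrs1l (0.18), Atp2a2 (0.20) and Smap2 (0.21) against 0.28. Dlg3 had Chd8 (0.26), Bcr (0.28) and Gm45837 (0.29) against 0.46, and Dlgap1 had Rbfox3 (0.26), Fam168a (0.26) and Ap2m1 (0.27) against 0.40. No scaffold gene was among the 3 closest of another.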

How the data were processed

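The submitters' processing notes name STAR 2.5.1b, RSEM 1.2.20 and build mm10; per the labels' protocols the libraries come from a NuGEN Ovation V2 kit. Per the file headers, the deposited tables give expected counts, TPM and FPKM for genes and isoforms, and the percent of a gene's TPM on each isoform; FPKM was not used. For trimming, strand setting, read length and annotation release, no statement was found: not given in the sources used here. RSEM divides fragments among overlapping isoforms by a model, so isoform values and the lengths behind TPM are estimates, and fragments of genes on opposite strands cannot be told apart.

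Models, positions and sequences came from GENCODE M21 (GRCm38), matched by ID for 37607 of 39017 genes; the authors' isoform lengths differ from it for some models, Dlg4-201 among them. Expected counts were rounded, filtered with filterByExpr and scaled by TMM, and all 16 libraries entered a single robust quasi-likelihood fit of edgeR 4.0.16 with a mean for each group (R 4.3.3, limma 3.58.1, DESeq2 1.42.0 for alternatives). Isoform use was tested with edgeR's diffSpliceDGE over 21625 isoforms. Tested on simulated data, the gene test made few false calls but found a minority of changes at the spread of these libraries, while the isoform test found none there and called more unchanged genes than its threshold allows, so isoform calls are weak evidence. Fold changes are log2, and SE is the standard error.

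The 4 libraries of a group are biological replicates by the design text. Replicate numbers follow the order of the records. Named genes are all 9 members, up to 4 called genes per list and comparison, the 3 closest genes per member, and isoforms with a mean of at least 5% in a group; outside this rule, Shank2-203 was named for its call and Dlg4-203 for its sequence, chosen after values were seen. 1 called scaffold partner is not reported here by name. Members and lists were chosen with earlier results of these data known. Alternatives were DESeq2, upper-quartile scaling, no count filter, only the compared groups, removal of the GC and length trend, limma on log2(TPM + 1) and log2(TPM + 0.1), voom with library weights and leaving out each library. Counting only complete coding isoforms, leaving old D1 out of the fit, and levels over a fixed length were added after seeing the data.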

Additional observations from a re-analysis of the deposited data

Results flagged for a closer look

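In 6 of 36 groups of 4 libraries, 1 library stood far from the other 3 by Dixon's criterion, which chance gives in about 1 group in 20. Young D1 replicate 3 was low for Dlg4 (738 TPM), Dlgap1 (29.5 TPM) and Shank3 (25.2 TPM). Young D1 replicate 4 was high for Dlg3 (67.7 TPM) and low for Shank2 (27.3 TPM). Old D1 replicate 4 was high for Shank3 (86.25 TPM), and without it the age change of Shank3 in D1 was -2.75 on the log2 scale. The age change of Dlg4 differed between the kinds by -1.36 (D1 minus D2) in the direct test of that difference.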

How the results depend on the processing

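Counts of called scaffold genes moved by setting. They are given without the share of all genes or isoforms called under the same setting, so they compare settings only. When just the compared groups were fitted, 1 gene was called with age in D1 and 1 at 2 years (Dlg4 in both). With age in D1, log2(TPM + 1) and voom gave 2 each. The difference between age changes gave 0 after removal of the GC and length trend, with log2(TPM + 1) and with log2(TPM + 0.1), and the comparison at 42 days gave 0 with either TPM scale. Leaving out 1 library gave 3 to 5 calls with age in D1, 0 to 0 in D2, 1 to 2 for the difference, 0 to 1 at 42 days and 2 to 3 at 2 years. For isoforms, limma's diffSplice called 8 with age in D1, 1 with age in D2 and 13 at 2 years, and leaving out 1 library gave 2 to 4, 0 to 0 and 3 to 6. Counting complete coding isoforms only, the difference held 1 call, which was Shank3 and not Dlg4.

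Signs turned only for changes that were not called, apart from Dlgap3 at 2 years (0.053 after removal of the GC and length trend). After that removal, Shank1 with age in D1 was 0.40, and the differences of Dlg2 and Dlgap3 were -0.50 and 0.28. Upper-quartile scaling gave Dlgap1 -0.042 for the difference; log2(TPM + 1) and log2(TPM + 0.1) gave -0.26 and -0.27 for it, -0.21 and -0.22 for Dlgap1 at 2 years, and at 42 days -0.021 and -0.021 for Dlg3 and -0.13 and -0.14 for Shank3. Voom gave Shank3 0.0095 with age in D2. Complete coding isoforms gave 0.13 for that, -0.24 for the difference of Dlg2 and 0.0078 for Dlgap3 at 42 days. Leaving out 1 library gave -0.15 to 0.10 for Dlg2 with age in D1, -0.23 to 0.15 for Shank3 with age in D2, -0.11 to 0.18 for the difference of Dlgap1, -0.24 to 0.030 for Dlg2 at 2 years, and at 42 days -0.10 to 0.20 for Dlg3, -0.53 to 0.13 for Dlgap3, -0.028 to 0.23 for Shank2 and -0.010 to 0.48 for Shank3. The cause was not tested. Dlg4 and Shank2 kept their direction in every alternative with age in D1 and at 2 years. No paired analysis was possible because the replicate numbers only follow the order of the records. Every member had at least 650 counts in every library, while isoforms at 0 in old D1 may lie below detection there. The part of depth and detection in the gene levels was not tested.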
